A study of Homo sapiens with 12 samples.

Results

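The 2 libraries described here are the third replicates of the 22Rv1 cells, 1 with NC-mimic (control 3) and 1 with piR-4447944 mimic (mimic 3), out of 12 mRNA libraries in all. They were chosen by the last number of their titles and because earlier results of these data had shown that they stood apart, and they were set against the 4 libraries of 22Rv1 replicates 1 and 2. 22Rv1 is a human prostate cancer (PCa) line derived from a castration-relapsed xenograft, and the androgen-sensitive line LNCaP, from a lymph node metastasis, gave the other 6 libraries. Cells of both lines received NC-mimic, a negative control RNA, or piR-4447944 mimic, a chemically modified RNA oligo that copies the piRNA, with 3 libraries in each of the 4 groups. The cells of all 12 libraries grew in 10% CS-FBS, serum that charcoal has depleted of steroids such as androgens. The labels name no culture date, passage or extraction batch, so a batch that replicate 3 may have shared and the state of its cells cannot be told apart. They do not say that replicates were separate cultures, so p-values measure only the spread between these libraries.

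Several programs of gene expression are known to follow the state of a culture. When oxygen is scarce, hypoxia-inducible factors (HIF) escape the EGLN prolyl hydroxylases and the VHL ubiquitin ligase, and switch on genes of glycolysis, blood vessel growth and pH control. SREBP factors switch on sterol and fatty acid synthesis when membrane cholesterol is low, ATF4 answers to shortage of amino acids and to stress kinases, NRF2 to oxidants and electrophiles, and the immediate early genes to growth factors and stress within minutes.

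The expected counts, which are RSEM's estimates of the reads of each gene, summed to between 12161091 (22Rv1 control 3) and 22179601 (22Rv1 control 1) per library, and mimic 3 held 15449273. Levels are given as CPM, the count of a gene relative to the total of its library after TMM scaling, in the usual CPM unit. Both replicate 3 libraries kept the identity of the line: of the 50 genes most above LNCaP in 22Rv1 replicates 1 and 2, 50 lay nearer to 22Rv1 than to LNCaP in each of them, and of the 50 most below, 49 did in each. Mimic 3 differed from the other 22Rv1 libraries in measures of the whole library too. Its median fragment length was 256.7 bases, against 270.6 to 278.8 in the other 5, and mitochondrially encoded mRNAs took 1.6% of its counts, against 4.07% to 4.79%. Control 3 was at 278.8 bases and 4.07%, next to the range of replicates 1 and 2 in both measures.

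Over 12437 genes with at least 5 CPM on average, the SD of the log2 ratio between 2 libraries was 0.261 to 0.362 among 22Rv1 replicates 1 and 2. It was 0.607 to 0.643 from control 3 to each of these 4 libraries, 0.751 to 0.817 from mimic 3 to each of them, and 0.671 between control 3 and mimic 3. The distance between the 2 libraries was thus of the order of their distance from the rest. Among the LNCaP libraries the same SD was 0.174 to 0.292.

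**Figure D1:**
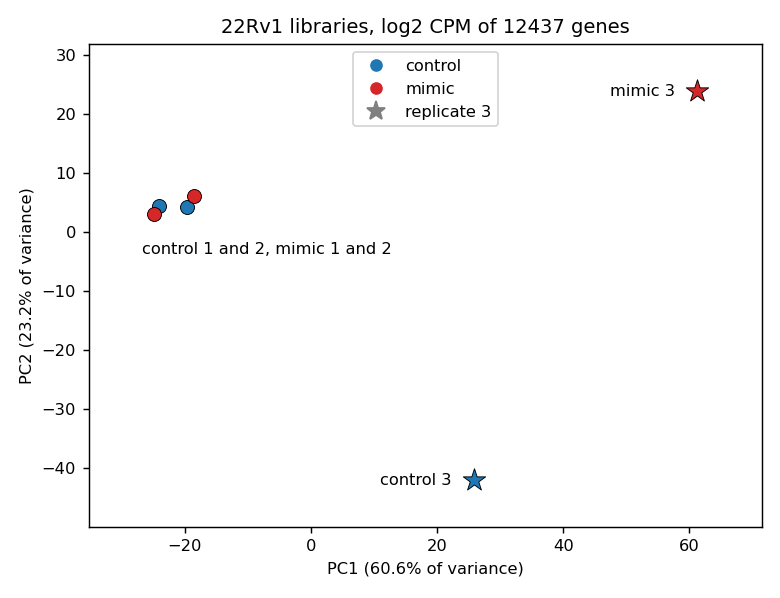
Principal components of log2 CPM over 12437 genes in the 6 22Rv1 libraries. Each point is a library, with blue for control, red for mimic and stars for replicate 3. The 4 libraries of replicates 1 and 2 lie together on PC1 (60.6% of the variance), control 3 and mimic 3 lie apart from them on PC1, and PC2 (23.2%) sets control 3 and mimic 3 at opposite ends.

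With the mimic as a term, 1262 of 17944 genes tested were called higher in replicate 3 (percent called 7.03%) and 1114 lower (6.21%) at an adjusted p under 0.05. These calls come from the contrast that chose the libraries, so they give its size and are no test of it. In 19.2% of the genes tested both replicate 3 libraries were above all 4 others, and in 19.7% both were below. The counts depended on single libraries of replicates 1 and 2: without control 1, control 2, mimic 1 or mimic 2 they were 499, 789, 659 and 517 higher and 325, 581, 459 and 298 lower. Without control 3, so that mimic 3 stood alone, 2378 were higher and 3164 lower, and without mimic 3, 1396 and 1460.

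Taken one at a time, control 3 was higher than control 1 and 2 for 1402 of 19568 genes tested (7.16%) and lower for 1408 (7.2%). Mimic 3 was higher than mimic 1 and 2 for 2400 (12.3%) and lower for 3156 (16.1%). Over the 12437 genes with at least 5 CPM, the SD of the log2 shift was 0.636 for control 3 and 0.783 for mimic 3. The 2 shifts share no library, had the same sign for 64.8% of genes, and correlated across genes with a Pearson's r of 0.481 and a Spearman's rho of 0.436, where genes are not independent replicates. At a shift of at least 1 on the log2 scale, 323 genes were higher in both libraries and 141 lower in both. Another 247 were higher and 204 lower in control 3 alone, 519 were higher and 801 lower in mimic 3 alone, and 23 moved in opposite directions.

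The difference between the 2 shifts is another contrast than the one that chose the libraries, and it was tested. It rests on the same libraries, chosen with earlier results of these data known. It passed the threshold for 885 of 19568 genes that were higher in the mimic 3 shift (4.52%) and for 1286 that were lower (6.57%), 11.1% in all, by the quasi-likelihood test of edgeR with p-values adjusted after Benjamini and Hochberg. This test takes its spread from replicates 1 and 2 of each arm and assumes that the lone replicate 3 libraries vary alike. The mimic and the library cannot be told apart in it, since each arm has 1 replicate 3 library. DESeq2 gave 606 higher and 809 lower, and limma on log2(TPM + 1) gave 2 higher and 15 lower, with 0 of the HIF, glycolysis and cell cycle genes among them.

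**Figure D2:**
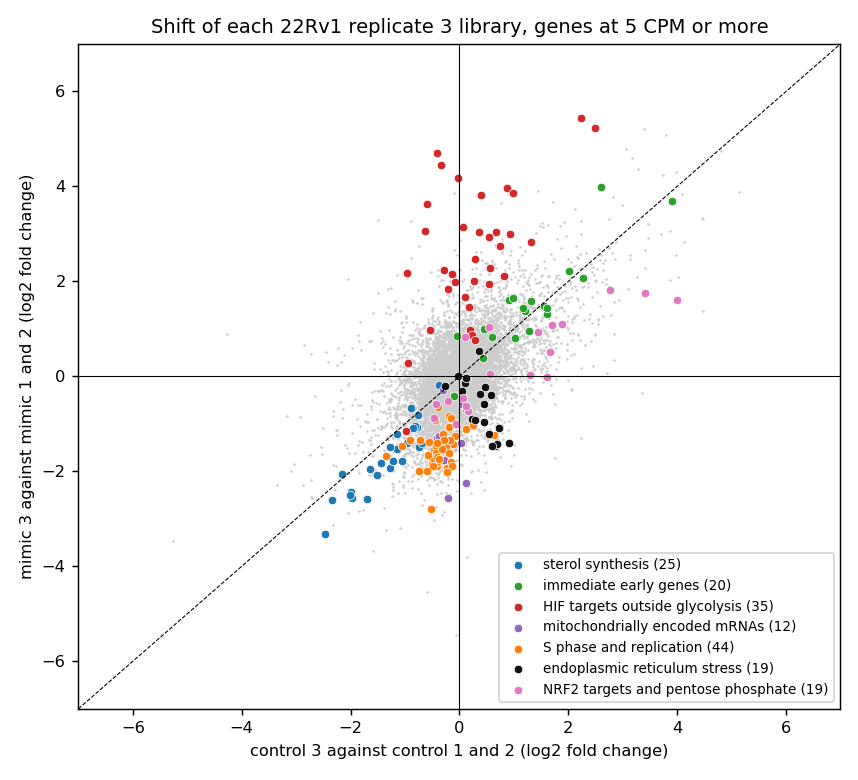
Log2 fold change of control 3 against control 1 and 2 (x axis) and of mimic 3 against mimic 1 and 2 (y axis), with 1 grey point per gene with at least 5 CPM and 7 gene lists coloured, their number of genes drawn in brackets. The axes end at 7 on either side, which leaves out 10 genes. Sterol synthesis (blue) and immediate early genes (green) lie near the dashed line of equal shift, HIF targets (red) far above it, and S phase genes (orange), endoplasmic reticulum stress genes (black) and NRF2 targets (pink) mostly below it.

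VEGFA, NDUFA4L2 and ADM are HIF targets that came with the choice of the libraries as its markers. VEGFA, the main growth factor of blood vessels, was at 152 and 197 CPM in control 1 and 2, at 127 and 212 in mimic 1 and 2, at 345 in control 3 and at 2511 in mimic 3. NDUFA4L2, a mitochondrial protein that lowers respiration, was at 33.5 and 85.3 in control 1 and 2, at 15.6 and 73.4 in mimic 1 and 2, at 331 in control 3 and at 1713 in mimic 3. ADM, the vasodilator adrenomedullin, was at 3.24 and 4.37 in control 1 and 2, at 2.16 and 3.64 in mimic 1 and 2, at 17.8 in control 3 and at 130 in mimic 3. Both replicate 3 libraries were above all 4 others for each of the 3 genes, and mimic 3 was several times above control 3. The log2 change of replicate 3 was 2.69 ± 0.58 (SE) for VEGFA, 4.09 ± 0.77 for NDUFA4L2 and 4.08 ± 0.62 for ADM. The shift of mimic 3 was larger than that of control 3 by 2.89 ± 0.30 for VEGFA, 2.74 ± 0.80 for NDUFA4L2 and 3.20 ± 0.37 for ADM. These values give size only, since the markers came with the choice of the libraries.

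HIF targets were far higher in mimic 3 than in control 3. Of 38 HIF targets outside glycolysis that were tested, out of 40 listed, 32 had a larger shift in mimic 3 than in control 3 and 0 a smaller one by edgeR's quasi-likelihood test (background 4.52% and 6.57%). Their median log2 shift was 0.21 in control 3 and 2.61 in mimic 3, beside -0.0165 and -0.0315 over all genes tested. In mimic 3, 37 of the 38 were above all 4 libraries of replicates 1 and 2. In control 3, 19 were above all 4 and 6 below. Over the 17944 genes tested, mimic 3 was above for 6514, and control 3 was above for 5948 and below for 5932. In the contrast of both libraries together, 13 of 38 were called higher and 1 lower (background 7.03% and 6.21%). The count of those higher was 2 without control 1, 6 without mimic 1, 2 without mimic 2 and 7 without mimic 3, and 35 without control 3. By DESeq2, 22 of the 38 had the larger shift in mimic 3. The list also set replicate 1 apart from replicate 2: the median level, relative to the mean of the 4 libraries, was -0.0978 and 0.207 in control 1 and 2 and -0.405 and 0.248 in mimic 1 and 2, against 0.29 in control 3 and 2.27 in mimic 3. Control 3 thus lay just above control 2 and mimic 2, and mimic 3 far above all.

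BHLHE40, a transcriptional repressor that HIF induces, was at 1.82 and 4.96 CPM in control 1 and 2, at 1.05 and 4.82 in mimic 1 and 2, at 2.46 in control 3 and at 80.0 in mimic 3. It was among the 5 genes with the largest positive difference between the shifts, at 5.11 ± 0.87 on the log2 scale. That value gives size only, since the difference itself picked the gene. ANKRD37, an ankyrin repeat protein and HIF target, was at 1.33 to 6.01 in replicates 1 and 2, at 4.35 in control 3 and at 62.0 in mimic 3. For both genes control 3 lay within the range of replicates 1 and 2 and mimic 3 above it. NDRG1, a stress and differentiation gene, was at 49.2 to 104 in replicates 1 and 2, at 153 in control 3 and at 1213 in mimic 3.

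Promoters of these genes were read for the core of the hypoxia response element, TACGTG on either strand, within 250 bases before and 50 after the start site (RefSeq, GRCh38.p14). It was found in 7 of 29 HIF targets with a promoter (24.1%) and in 3 of 21 glycolysis genes, against 3.3% of 11895 promoters of genes tested. The shorter core ACGTG, which the longer one contains, was in 15 of 29 HIF targets (51.7%) and in 8 of 18 endoplasmic reticulum stress genes (44.4%), against 26.2%. A match is a description and not a site that was shown to be bound. These windows of 30 bases are shown on the strand of the gene, with the core in capitals (CACGTA where it lies on the other strand), because the 5 genes were high in mimic 3 and not, or far less, in control 3. They lie at chr4:185396685-185396714 on the plus strand (ANKRD37), chr3:4979276-4979305 on the plus strand (BHLHE40), chr1:231422284-231422313 on the minus strand (EGLN1), chr12:6914449-6914478 on the plus strand (ENO2) and chr17:28576906-28576935 on the minus strand (ALDOC).
ANKRD37: ccagtgtttgtgTACGTGcggccgtggcgg
BHLHE40: cacagggtagaaCACGTAgctccaacccac
EGLN1: ggggccgtggtgTACGTGcagagcgcgcag
ENO2: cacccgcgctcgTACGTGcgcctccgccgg
ALDOC: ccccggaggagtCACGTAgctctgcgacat

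Glycolysis genes, many of them HIF targets themselves, were also higher in mimic 3. Of 22 genes of glycolysis and pyruvate entry, 17 had a larger shift in mimic 3 and 0 a smaller one (edgeR; background 4.52% and 6.57%), with a median shift of 0.38 in control 3 and 2.21 in mimic 3, and DESeq2 gave 10. ALDOA, the muscle-type aldolase, was at 567 to 864 CPM in replicates 1 and 2, at 1250 in control 3 and at 4490 in mimic 3. PGK1, phosphoglycerate kinase, was at 398 to 658 in replicates 1 and 2, at 994 in control 3 and at 3246 in mimic 3. Control 3 was above all 4 other libraries for both genes, by far less than mimic 3. ENO2, the neuronal enolase, was at 218 to 294 in replicates 1 and 2, at 379 in control 3 and at 1208 in mimic 3. PFKP, the platelet phosphofructokinase, was high in both libraries, with 9.36 to 12.9 in replicates 1 and 2, 50.9 in control 3 and 61.2 in mimic 3, and its 2 shifts differed by 0.32 ± 0.31 (edgeR adjusted p = 0.577). SLC16A3, the lactate exporter MCT4, was at 32.0 to 76.0, at 159 in control 3 and at 411 in mimic 3. Over all genes tested, 7.03% were called higher in replicate 3 and 6.21% lower. In the contrast of both libraries, 11 of 22 genes were called higher and 0 lower, which was 1 without control 1, 3 without mimic 1, 1 without mimic 2, 7 without mimic 3 and 20 without control 3.

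Of the HIF factors and their oxygen sensors, HIF1A, the alpha subunit, was lower in both libraries, at 153 to 176 CPM in replicates 1 and 2, 100 in control 3 and 79.5 in mimic 3. EPAS1, the alpha subunit also called HIF2A, was higher in both, at 2.69 to 4.11 in replicates 1 and 2, 10.1 in control 3 and 8.67 in mimic 3. Neither of these shifts differed between the libraries past the threshold. EGLN3, a prolyl hydroxylase that HIF itself induces, was at 2.23 to 5.16 in replicates 1 and 2, at 2.87 in control 3 and at 23.7 in mimic 3, a difference of 3.68 ± 0.56 between the shifts (edgeR adjusted p = 0.00112). EGLN1, the main prolyl hydroxylase, was at 80.2 to 111, at 96.0 in control 3 and at 382 in mimic 3. Thus control 3 was inside the range of replicates 1 and 2 for both hydroxylases. VHL itself was at 95.3 to 106 in replicates 1 and 2, at 114 in control 3 and at 119 in mimic 3.

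**Figure D3:**
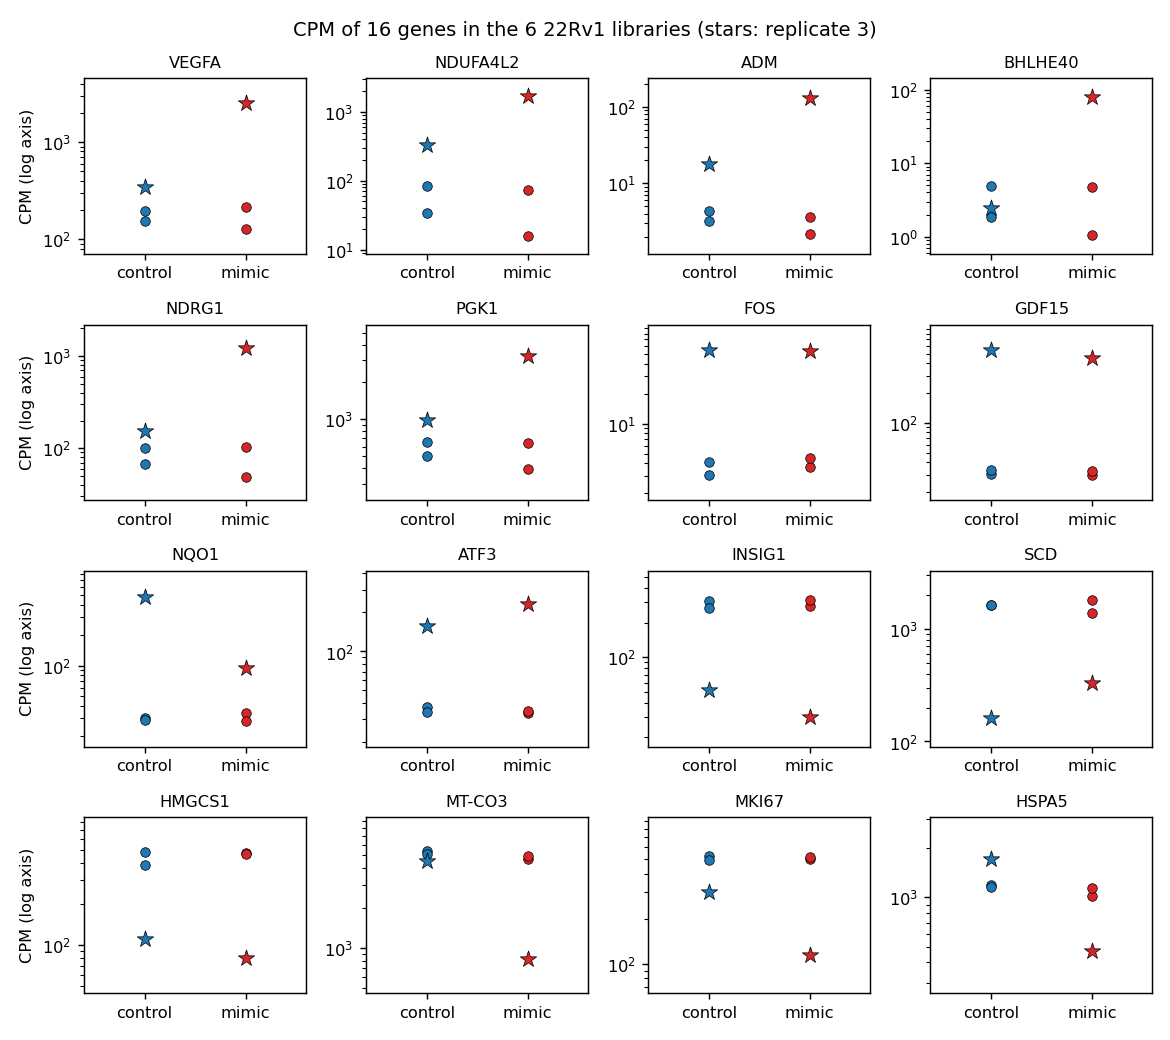
CPM on a log axis of 16 genes in the 6 22Rv1 libraries, control in blue and mimic in red, 1 point per library, with stars for replicate 3. VEGFA, NDUFA4L2 and ADM show both stars above all circles, BHLHE40 only that of mimic 3, FOS and GDF15 both stars at a like height, NQO1 the higher star in control 3, INSIG1, SCD and HMGCS1 both stars below all circles, and HSPA5 the stars on opposite sides.

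Lipid synthesis genes were low in both libraries. Over all genes tested, both replicate 3 libraries were below all 4 others for 19.7%. Of 25 genes of sterol synthesis and uptake, all 25 were below all 4 other libraries in both replicate 3 libraries, and 24 were called lower and 0 higher (background 6.21% and 7.03%), with 22 to 24 called when any 1 library was left out. Their median log2 shift was -1.22 in control 3 and -1.78 in mimic 3. For 7 of 25 the shift was lower in mimic 3, and for 0 it was higher, by edgeR's test of the difference (background 6.57% and 4.52%). INSIG1, which retains the SREBP escort protein in the endoplasmic reticulum and is itself an SREBP target, was at 309 and 267 CPM in control 1 and 2, at 277 and 312 in mimic 1 and 2, at 51.9 in control 3 and at 29.97 in mimic 3. HMGCS1, which makes HMG-CoA, was at 386 to 478 in replicates 1 and 2, at 111 in control 3 and at 80.3 in mimic 3. The groups did not overlap for either gene. MVK, mevalonate kinase, was at 83.0 to 94.2, at 22.5 in control 3 and at 16.1 in mimic 3, and its shifts differed by -0.44 ± 0.21 (edgeR adjusted p = 0.21).

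Of 13 genes of fatty acid synthesis, 11 were called lower and 0 higher, and 9 to 12 were lower when any 1 library was left out, with a median shift of -0.92 in control 3 and -1.47 in mimic 3. Over all genes tested, 6.21% were called lower and 7.03% higher. SREBF1, which encodes the SREBP factor of fatty acid synthesis, was at 492 to 557 CPM in replicates 1 and 2, at 106 in control 3 and at 58.5 in mimic 3. FASN, fatty acid synthase, was at 1705 to 1952, at 708 in control 3 and at 516 in mimic 3. SCD, the stearoyl-CoA desaturase, went the other way in the order of the 2 libraries, with 1370 to 1806 in replicates 1 and 2, 162 in control 3 and 329 in mimic 3. Its shift was less deep in mimic 3 by 1.06 ± 0.17 on the log2 scale (edgeR adjusted p = 0.00169). Of the 13 genes, 8 had the lower shift in mimic 3 (background 6.57%). FADS2, a fatty acid desaturase, was at 114 to 162, at 22.8 in control 3 and at 23.5 in mimic 3. ELOVL6, a fatty acid elongase, was lower by counts, with 158 to 178 CPM in replicates 1 and 2, 87.0 in control 3 and 44.5 in mimic 3. On the log2(TPM + 1) scale its change was 0.505, where RSEM's mean transcript length for the gene was 607 bases in control 3 and 5600 to 6570 bases in the other 5 libraries.

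The sterol response element TCACNCCAC, on either strand, was found in 1 of 18 sterol genes with a promoter, against 1.07% of promoters of genes tested. It was also in 1 of 12 fatty acid synthesis, 1 of 18 immediate early and 1 of 21 glycolysis genes. In 29 HIF, 25 ATF4 and 18 endoplasmic reticulum stress genes it was in 0, so 1 match does not set the sterol list apart. The sterol gene was SREBF2, which encodes the SREBP factor of sterol synthesis. Its window is shown because it was the one match of the sterol list (a gene chosen after its values were seen). It lies at chr22:41832962-41832991 on the plus strand, with the match in capitals.
SREBF2: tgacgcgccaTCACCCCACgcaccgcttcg

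Immediate early genes were high in both libraries. Of 24 tested, 19 were called higher and 0 lower (background 7.03% and 6.21%), with 14 to 18 higher when any 1 library was left out. Their median shift was 1.24 in control 3 and 1.44 in mimic 3, and for 3 of 24 the shift was larger in mimic 3 by edgeR's test (1 without control 2 and 1 without mimic 1). Over all genes tested, 4.52% had a larger shift in mimic 3. FOS, a subunit of the AP-1 factor, was at 4.10 and 3.07 CPM in control 1 and 2, at 3.70 and 4.48 in mimic 1 and 2, at 54.4 in control 3 and at 53.7 in mimic 3. EGR1, a zinc finger factor, was at 11.4 to 13.7 in replicates 1 and 2, at 65.3 in control 3 and at 51.0 in mimic 3. JUNB, another AP-1 subunit, was at 34.4 to 43.8, at 108 in control 3 and at 112 in mimic 3. Both replicate 3 libraries were above all 4 others for each of these genes. The 2 shifts of FOS differed by -0.21 ± 0.33 on the log2 scale (edgeR adjusted p = 0.756).

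ATF4 targets were high in both libraries as well. Of 30 tested, 20 were called higher and 1 lower (background 7.03% and 6.21%), with a median shift of 0.51 in control 3 and 0.79 in mimic 3, and 13 were called higher without mimic 2. ATF3, a stress-induced repressor, was at 33.2 to 37.2 CPM in replicates 1 and 2, at 158 in control 3 and at 232 in mimic 3. DDIT3, the pro-apoptotic factor CHOP, was at 52.7 to 59.0, at 140 in control 3 and at 249 in mimic 3. CHAC1, which degrades glutathione, was at 3.46 to 5.43, at 15.1 in control 3 and at 22.6 in mimic 3. SLC7A11, the cystine importer, had the higher level in control 3, at 186 against 165 in mimic 3 and 52.8 to 86.3 in the other libraries. Its 2 shifts differed by -0.54 ± 0.24 (edgeR adjusted p = 0.172).

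The ATF4 response element TGATGNAA, on either strand, was in 7 of 25 promoters of the ATF4 list (28%), against 1.74% of promoters of genes tested. These 3 windows are shown since ATF3 and CHAC1 had the largest changes on the list after GDF15, and ASNS, asparagine synthetase, is its textbook target, chosen after its values were seen. The capitals mark the match, or its complement where it lies on the other strand. They lie at chr1:212565205-212565234 on the plus strand (ATF3), chr15:40953251-40953280 on the plus strand (CHAC1) and chr7:97872458-97872487 on the minus strand (ASNS).
ATF3: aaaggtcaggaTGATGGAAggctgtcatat
CHAC1: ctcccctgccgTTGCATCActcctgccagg
ASNS: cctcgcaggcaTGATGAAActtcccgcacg

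Metallothioneins bind zinc and copper. Over all genes tested, 7.03% were called higher and 6.21% lower. Of 7 tested, 4 were called higher and 0 lower, and 4 or 5 were when any 1 library was left out. MT2A was at 82.1 to 104 CPM in replicates 1 and 2, at 152 in control 3 and at 200 in mimic 3. MT1X was at 4.09 to 8.16, at 22.5 in control 3 and at 39.9 in mimic 3, a shift larger in mimic 3 by 1.68 ± 0.34 (edgeR adjusted p = 0.00626). These genes lie in a cluster of near-identical copies, between which RSEM divides reads, so their single values are uncertain. The metal response element core TGCNCNCG, on either strand, was in 3 of 3 promoters found for this list, against 24.7% of promoters of genes tested, and is shown in capitals for MT1X at chr16:56682309-56682338 and MT2A at chr16:56608420-56608449, both on the plus strand.
MT1X: aggccccgcggTGCGCCCGgcgctgggctc
MT2A: gcagagccgggTGCGCCCGgcccagtgcgc

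The genes with the largest shared shifts came from many functions. GDF15, a stress-induced cytokine of the TGF-beta family that is also on the ATF4 list, was at 30.6 and 33.5 CPM in control 1 and 2, at 29.7 and 32.5 in mimic 1 and 2, at 546 in control 3 and at 451 in mimic 3, a log2 change of 3.97 ± 0.11. CALCA, which encodes calcitonin and CGRP, was at 2.44 to 3.08 in replicates 1 and 2, at 96.2 in control 3 and at 41.7 in mimic 3. CYP1A1, a monooxygenase induced through the aryl hydrocarbon receptor, was at 3.00 to 5.17, at 45.6 in control 3 and at 140 in mimic 3. That both libraries stood above the other 4 was a condition of the choice of these genes, so their values give size only. Which of the 2 libraries was higher differed from gene to gene. BARX1, a homeobox factor, was at 0.0912 to 1.18 in replicates 1 and 2, at 9.61 in control 3 and at 23.5 in mimic 3. L1CAM, a neural cell adhesion molecule, was at 1.24 to 2.83, at 28.2 in control 3 and at 28.4 in mimic 3. PLEKHH2, a cytoskeletal protein, was at 0.783 to 2.52, at 23.8 in control 3 and at 42.6 in mimic 3. LAMP3, a lysosomal membrane protein, was at 0.336 to 1.96, at 14.1 in control 3 and at 22.8 in mimic 3.

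On the lower side, ADRA2A, an adrenergic receptor, had the largest shift, at 29.6 and 40.3 CPM in control 1 and 2, 31.6 and 31.5 in mimic 1 and 2, 0.903 in control 3 and 2.87 in mimic 3. Its log2 change was -4.12 ± 0.39. This gives size only, since a large fall in both libraries picked the genes of this side. Of the other 9 genes with the largest lower shifts, INSIG1, SCD, SREBF1 and FADS2 are lipid genes described above. DDC, the decarboxylase of dopamine and serotonin synthesis, was at 10.9 to 14.6 in replicates 1 and 2 and at 2.05 and 2.04 in control 3 and mimic 3. KCNMA1, a calcium-activated potassium channel, was at 31.5 to 38.5, at 4.35 in control 3 and at 8.93 in mimic 3. CADM2, a synaptic adhesion molecule, was at 23.9 to 32.2, at 5.83 in control 3 and at 3.95 in mimic 3. SSX2, a cancer-testis antigen with close copies on the X chromosome, was at 7.96 to 28.1 and at 3.04 and 1.79 in control 3 and mimic 3.

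Several p53 targets were high in both libraries, and some androgen-induced genes were low. Of 24 p53 targets, 9 were called higher and 0 lower (background 7.03% and 6.21%), but 4 without mimic 1 or without mimic 2 and 15 without control 3. CDKN1A, the cell cycle inhibitor p21, was at 129 to 145 CPM in replicates 1 and 2, at 323 in control 3 and at 624 in mimic 3, a larger shift in mimic 3 by 1.05 ± 0.14 (edgeR adjusted p = 0.000408). GADD45A, a growth arrest gene, was at 7.90 to 13, at 47.5 in control 3 and at 49.6 in mimic 3. Of 18 androgen-induced genes tested, 7 were called lower and 1 higher (background 6.21% and 7.03%), with a median of -0.439. Of 8 androgen-repressed genes tested, 3 were called lower and 1 higher, with a median of -0.419, so that both lists were low. TMPRSS2, a serine protease that androgens induce, was at 48.5 to 62.3, at 25.7 in control 3 and at 22.1 in mimic 3. PMEPA1, a target of androgens and TGF-beta, was at 394 to 510, at 83.3 in control 3 and at 203 in mimic 3. KLK3, which encodes PSA, was at 27.6 to 50.9 in replicates 1 and 2. It was inside that range in control 3, at 48.8, and below it in mimic 3, at 17.1.

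**Figure D4:**
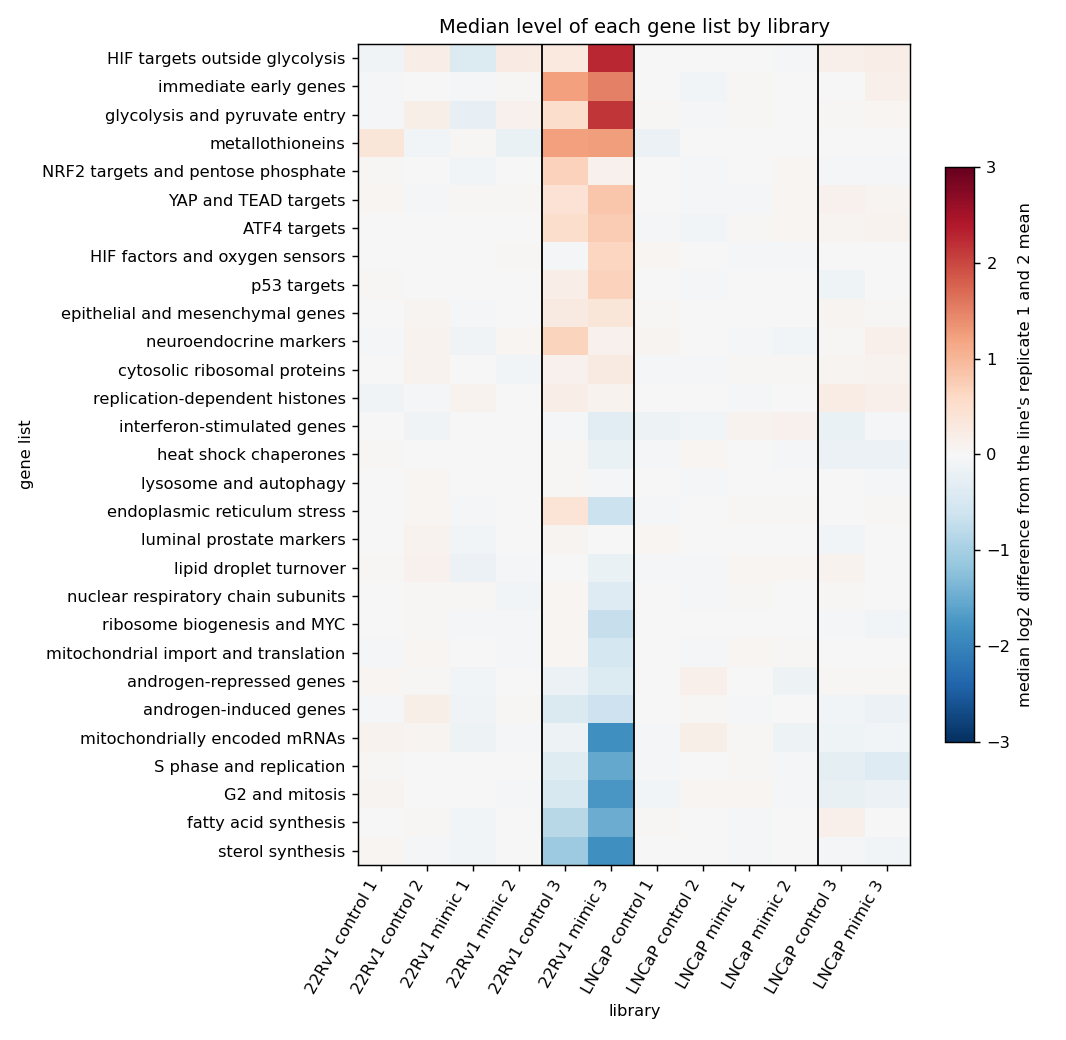
Median log2 level of 29 gene lists (rows) in each of the 12 libraries (columns), relative to the mean of replicates 1 and 2 of the same line, with red for higher and blue for lower on a colour scale that ends at 3 on either side. Black lines set replicate 3 apart from replicates 1 and 2. The replicate 3 columns of 22Rv1 carry the strongest colours, alike for immediate early genes (1.22 and 1.51) and unlike for HIF targets (0.29 and 2.27) and endoplasmic reticulum stress (0.42 and -0.65), and the LNCaP columns are pale.

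Genes of the cell cycle were low in both libraries and lowest in mimic 3. Of 44 genes of S phase and replication, 38 had a lower shift in mimic 3 than in control 3 and 0 a higher one by edgeR's test (background 6.57% and 4.52%), with medians of -0.40 in control 3 and -1.55 in mimic 3. Of 42 genes of G2 and mitosis, 40 had a lower shift in mimic 3 and 0 a higher one, with medians of -0.53 and -1.75. In bulk RNA, fewer cells in cycle and less RNA of these genes per cell cannot be told apart. MKI67, the proliferation marker Ki-67, was at 495 to 527 CPM in replicates 1 and 2, at 301 in control 3 and at 115 in mimic 3. TYMS, thymidylate synthase, was at 200 to 242, at 92.0 in control 3 and at 64.5 in mimic 3. CLSPN, the replication checkpoint protein claspin, was at 65.2 to 72.0, at 47.6 in control 3 and at 10.3 in mimic 3. Both libraries lay below all 4 others for each of the 3 genes. The shifts of CLSPN differed by -2.28 ± 0.21 (edgeR adjusted p = 4.45e-05), and those of TYMS by -0.32 ± 0.15 (edgeR adjusted p = 0.206). In the contrast of both libraries 22 of 44 and 26 of 42 were called lower (background 6.21%). These were 4 and 4 without control 1, 9 and 19 without control 2, 5 and 10 without mimic 1, 4 and 4 without mimic 2, and 44 and 42 without control 3.

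Mitochondrially encoded mRNAs were lowest in mimic 3. Of 13, 12 had a lower shift in mimic 3 than in control 3 and 0 a higher one by edgeR's test. Their medians were -0.28 in control 3 and -1.72 in mimic 3. Over all genes tested, 6.57% had a lower shift in mimic 3 and 4.52% a higher one, the background for each list here. MT-CO3, a subunit of cytochrome c oxidase, was at 4659 to 5349 CPM in replicates 1 and 2, at 4543 in control 3 and at 821 in mimic 3. MT-ATP6, a subunit of ATP synthase, was at 1623 to 1948, at 2062 in control 3 and at 345 in mimic 3. For MT-ATP6 control 3 was thus the highest and mimic 3 the lowest of the 6 libraries. Of 65 nuclear-encoded respiratory chain subunits, 24 had a lower shift in mimic 3 and 0 a higher one, with medians of 0.0297 and -0.365. NDUFS1, a core subunit of complex I, was at 259 to 278 in replicates 1 and 2, at 227 in control 3 and at 140 in mimic 3. Of 25 genes of mitochondrial import and translation, 10 had a lower shift in mimic 3 and 1 a higher one, which was lost without mimic 1. LONP1, the mitochondrial matrix protease, was that one, at 208 to 240, at 297 in control 3 and at 430 in mimic 3. Of 22 genes of ribosome biogenesis and MYC, 10 had a lower shift in mimic 3 and 0 a higher one. NOP56, a nucleolar protein, was at 206 to 266, at 204 in control 3 and at 109 in mimic 3. Fragment length moved with mimic 3 as given above, and its part in these differences was not tested. The share of mitochondrial mRNA given above comes from the same counts as the mitochondrially encoded list. Its part in the differences of the other lists was not tested.

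Endoplasmic reticulum stress genes moved in opposite directions. Of 19, 16 were above all 4 libraries of replicates 1 and 2 in control 3, and 15 were below all 4 in mimic 3. Over the 17944 genes tested these numbers were 5948 and 6620. The medians were 0.44 and -0.59. By edgeR's test, 13 had a lower shift in mimic 3 and 0 a higher one (background 6.57% and 4.52%). In the contrast of both libraries together 0 of 19 were called, with 1 higher and 12 lower without control 3 and 12 higher and 0 lower without mimic 3. HSPA5, the chaperone BiP, was at 1014 to 1188 CPM in replicates 1 and 2, at 1708 in control 3 and at 469 in mimic 3, a difference of -1.75 ± 0.12 between the shifts (edgeR adjusted p = 2.86e-06). CRELD2, a secreted target of this response, was at 190 to 205, at 318 in control 3 and at 69.7 in mimic 3. SDF2L1, a partner of BiP, was at 67.6 to 74.8, at 109 in control 3 and at 24.8 in mimic 3. The replicates 1 and 2 lay between the 2 libraries for all 3 genes. DNAJB9, a co-chaperone of BiP, did not follow, at 22.9 to 25.0 in replicates 1 and 2, 31.9 in control 3 and 33.9 in mimic 3.

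Many NRF2 targets were higher in control 3 than in mimic 3. Of 19 genes of NRF2 and the pentose phosphate pathway, 11 had a lower shift in mimic 3 and 2 a higher one by edgeR's test. The background was 6.57% and 4.52%. Their medians were 0.557 in control 3 and 0.0566 in mimic 3. NQO1, a quinone reductase, was at 30.5 and 28.98 CPM in control 1 and 2, at 33.9 and 28.3 in mimic 1 and 2, at 479 in control 3 and at 95.5 in mimic 3. Both libraries were above the other 4, and the shift of mimic 3 was smaller by 2.40 ± 0.18 on the log2 scale (edgeR adjusted p = 8.2e-06). HMOX1, heme oxygenase, was at 36.8 to 51.4, at 317 in control 3 and at 143 in mimic 3. TXNRD1, thioredoxin reductase, was at 304 to 315, at 837 in control 3 and at 600 in mimic 3. AKR1C2 was at 23.4 to 29.2, at 103 in control 3 and at 54.3 in mimic 3, and shares reads with close copies.

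**Figure D5:**
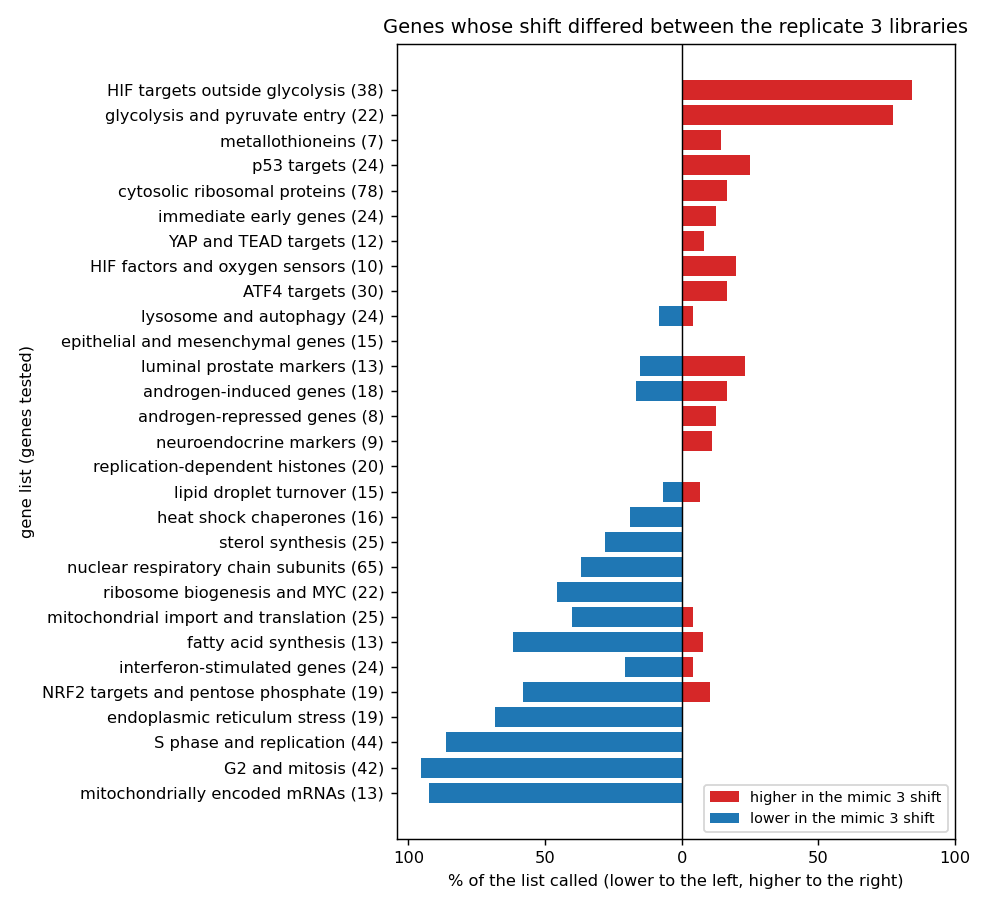
Share of the genes of each list whose shift differed between mimic 3 and control 3 at an adjusted p under 0.05, with bars to the right for a higher and to the left for a lower shift in mimic 3, and the number of genes tested in brackets. HIF targets (32 of 38) and glycolysis (17 of 22) reach farthest to the right and G2 and mitosis (40 of 42), mitochondrially encoded mRNAs (12 of 13) and S phase (38 of 44) farthest to the left.

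Among all genes, the 5 with the highest and the 5 with the lowest difference between the shifts included genes with few reads or overlapping neighbours. CERS6-AS1, CXCR5 and AMIGO3 had 0 counts in control 3, where 3 counts would be 0.245 CPM. Against that floor they were at least 77.6-fold, 22.3-fold and 33.4-fold lower than the mean of control 1 and 2. In mimic 3 they were at 20.3, 30.5 and 8.86 CPM. GNMT, glycine methyltransferase, had 0 counts in mimic 3 and was at least 42.7-fold lower there than in mimic 1 and 2, and at 2.13 in control 3. Of these 10 genes 9 overlap the span of another annotated gene on either strand, introns included (GENCODE v44). The same share over all genes was not counted, so it does not set these 10 apart. Whether they shared reads with a neighbour was not tested, and the strand setting of the counting is not given in the sources used here. CACNA1G, a calcium channel, was at 0.783 to 1.47 in replicates 1 and 2, at 23.1 in control 3 and at 3.63 in mimic 3. Its shifts differed by -3.10 ± 0.63, the difference that picked the gene. PEG3, an imprinted zinc finger gene, was at 5.61 to 9.69, at 6.73 in control 3 and at 0.638 in mimic 3. YPEL1 was at 0.246 in control 3 and 12.5 in mimic 3, with 2.35 to 7.29 elsewhere, NXF2 was at 42.1 and 1.98 with 22.9 to 102 elsewhere, and GPRIN3 was at 8.70 and 2.10 with 3.79 to 8.01 elsewhere.

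The remaining lists mostly showed smaller or mixed shifts, and over all genes 7.03% were called higher and 6.21% lower. Of 12 YAP and TEAD targets, 4 were called higher and 0 lower, with a median of 0.665, but 0 were called without mimic 2. Of 9 neuroendocrine markers, 4 were called higher and 0 lower, with medians of 0.583 in control 3 and -0.0635 in mimic 3. Of 15 epithelial and mesenchymal genes, 5 were called higher and 2 lower, and the higher ones were 2 without control 1, 3 without control 2, 2 without mimic 1, 2 without mimic 2 and 8 without control 3. FN1, fibronectin, was at 12.1 to 17 CPM in replicates 1 and 2, at 90.8 in control 3 and at 73.8 in mimic 3, and VIM, the mesenchymal filament vimentin, was at 26.1 to 36.4, 114 and 113. CLDN3, an epithelial tight junction protein, was also higher, at 48.8 to 56.3, 80.5 and 81.0, while OCLN and ESRP2 were lower in both libraries. TWIST1, a mesenchymal factor, was not called and lay lower, at 20.04 to 22.8, 10.8 and 18.1. Of 24 interferon-stimulated genes, 2 were called higher and 3 lower, with a median shift of -0.00329 in control 3 and -0.444 in mimic 3. In control 3, 11 were above all 4 libraries of replicates 1 and 2 and 6 below, and in mimic 3, 8 and 12. Over the 17944 genes tested these numbers were 5948 and 5932 in control 3, and 6514 and 6620 in mimic 3. BST2, which tethers virus particles, was at 1.73 to 3.56, 15.4 and 11.3, and DTX3L, an ubiquitin ligase, was at 47.8 to 52.3, 15.9 and 21.2. Of 16 heat shock chaperones, HSPB8 was higher, at 12.1 to 13.4, 75.2 and 36.6, and HSPA8 was lower, at 1431 to 1555, 945 and 767. GABARAPL1, an autophagosome protein, was at 12.9 to 16.6, 61.5 and 52.1. Of 20 replication-dependent histone genes tested 1 was called higher, near the share over all genes. Of 78 cytosolic ribosomal proteins, 44 were above all 4 others in both replicate 3 libraries and 0 below, against 19.2% and 19.7% of all genes. Their median shift was 0.0625 in control 3 and 0.286 in mimic 3. By edgeR, 13 had a larger shift in mimic 3 and 0 a smaller one (background 4.52% and 6.57%). In the contrast of both libraries, 8 were called higher, near the share over all genes, and 0 lower. That count was 0 without control 1, 1 without control 2, 0 without mimic 1 or mimic 2, and 49 without control 3.

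Markers of other cells were low throughout but not at the same level. The summed level of 10 fibroblast markers was 17 to 24.8 CPM in replicates 1 and 2, 46.9 in control 3 and 54.1 in mimic 3, of which COL1A1 made up 38.9 and 48.3, while FAP and POSTN had 0 counts in all 6 libraries. The 7 endothelial markers summed to 2.60 to 5.27, 11.2 and 11.2, mostly from EGFL7 (9.69 and 9.37), with KDR and CDH5 at 0 counts throughout. The 10 immune markers summed to 1.12 to 3.91, 2.13 and 4.34, with 4 at 0 counts throughout, among them CD3D and MS4A1. The 7 basal epithelial markers summed to 1.32 to 3.56, 2.63 and 10.8, in mimic 3 mostly from ITGB4 (5.29) and KRT15 (4.85), with KRT14, KRT17 and DSG3 at 0 counts throughout. The 13 luminal prostate markers summed to 3990 to 4270 in replicates 1 and 2, 4530 in control 3 and 4640 in mimic 3. The part of other cells in the shifts was not tested.

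Part of the shift of mimic 3 moved with base composition. Over 12420 genes with a known transcript, the median log2 shift of mimic 3 went from -0.214 in the fifth of genes with the lowest GC content to 0.0755 in the fifth with the highest, and its Spearman's rho with GC across genes was 0.176. For control 3 the rho was -0.0561. Transcript length did not order either shift, with rho of -0.0412 in control 3 and 0.00581 in mimic 3. RSEM's mean transcript length changed by over 0.2 on the log2 scale, relative to replicates 1 and 2, in 17.7% of genes in control 3 and in 19.4% in mimic 3, against 7.97% to 11% in the other 4 libraries, which are themselves part of that reference. By the same measure LNCaP replicate 3 was at 9.59% in both arms, against 4.96% to 6.75% in the other LNCaP libraries.

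The same contrast in LNCaP, which was not used to choose the libraries, called 142 of 16843 genes higher in replicate 3 (0.843%) and 161 lower (0.956%), 1.8% in all, by edgeR's quasi-likelihood test. Single libraries moved these counts: they were 74 and 92 without control 1, 258 and 311 without control 2, 22 and 19 without control 3, 32 and 28 without mimic 1, and 18 and 22 without mimic 3. Of 1033 genes called higher in 22Rv1 and tested in LNCaP, 32 were called higher there and 5 lower, and of 1030 called lower, 43 were called lower and 9 higher. S phase genes were lower in LNCaP replicate 3 too, for 16 of 44 with a median of -0.331. Of 33 HIF targets tested there, 3 were called higher and 1 lower, with a median of 0.116. Over the 38 HIF targets tested in 22Rv1, the median level was 0.144 in LNCaP control 3 and 0.19 in LNCaP mimic 3. It was -0.0473 to 0.0207 in the other LNCaP libraries. For sterol synthesis the median change was -0.0367, with 0 of 24 genes called higher and 1 lower. Whether the 2 lines differed was not tested.

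For the mimic, the term of the study, 0 of 17944 genes passed the threshold in 22Rv1 when replicate 3 was a term of the fit (842 at an unadjusted p under 0.05), by edgeR's quasi-likelihood test. The smallest adjusted p was 0.771. With the replicate numbers as a block it was 0.892, with 0 genes called and 459 at an unadjusted p under 0.05. DESeq2 called 1 gene higher and 2 lower, limma 2 higher and 0 lower, and edgeR without a low-count filter 122 and 135. With the filter, an effect of the mimic was thus not detectable by edgeR at the spread of these 6 libraries.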

How the data were processed

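mRNA of 12 libraries was measured, 6 of them from 22Rv1. Per the labels and the methods of the study, the authors aligned reads to hg38 with STAR (2.7.1a) and deposited expected counts and TPM per gene estimated with RSEM (1.3.0), and used DESeq2 (1.34.0) in R (4.1.1). The settings for strand are not given in the sources used here. Here the deposited expected counts were rounded to whole numbers, filtered with filterByExpr and tested with edgeR (4.0.16, R 4.3.3) by TMM scaling, quasi-likelihood tests and Benjamini-Hochberg adjustment over all genes tested, with a threshold of 0.05. 22Rv1 had 2 fits: the mimic and replicate 3 as terms, and 4 cells (arm by replicate 3) for each shift and their difference. DESeq2 (1.42.0), limma (3.58.1) on log2 of the deposited TPM plus 1 (TPM of at least 1 in 2 libraries), other filters, all 12 libraries together, and leaving out each library were the alternatives. Fits were tested on simulated data. Depth was 12161091 to 22179601 counts per library.

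The members and the gene lists were chosen with earlier results of these data known. Named genes were the 3 markers, the 10 largest higher and 10 largest lower shifts with a mean of at least 5 CPM and both libraries beyond the other 4, the 5 highest and 5 lowest differences between the shifts, and up to 6 genes per list, of which some are not reported here. ASNS, SREBF2, EGFL7, ITGB4 and KRT15 were named after their values were seen. Floors are 3 counts in the library at 0 and cover counting error only. Pairing by replicate number in 22Rv1 is not given by the labels and was read from the values. Deviations from the group means correlated between same-numbered libraries with r of 0.423, 0.363 and 0.503. Each group mean includes replicate 3, so the deviations of replicates 1 and 2 carry part of its shift. Their r therefore cannot show that replicates 1 and 2 were paired. Free of replicate 3, control 1 minus control 2 correlated with mimic 1 minus mimic 2 with r of 0.164 over 12437 genes.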

Additional observations from a re-analysis of the deposited data

Results flagged for a closer look

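The 2 replicate 3 libraries of 22Rv1 differed in their shifts by edgeR's test of the difference itself, which passed for 2171 genes, 885 with the higher and 1286 with the lower shift in mimic 3. Of the 3 markers, VEGFA had a shift larger in mimic 3 by 2.89 on the log2 scale, NDUFA4L2 by 2.74 and ADM by 3.2. The highest differences were fitted at 13 for CERS6-AS1, 12.9 for CXCR5 and 10.8 for AMIGO3, which had 0 counts in control 3, so these values depend on the prior count and are no bounds. YPEL1 (5.17) and BHLHE40 (5.11) followed. The lowest were GNMT at -8.35, with 0 counts in mimic 3 and so no bound either, then NXF2 at -3.96, PEG3 at -3.96, CACNA1G at -3.1 and GPRIN3 at -2.83.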

How the results depend on the processing

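For replicate 3 against replicates 1 and 2 in 22Rv1, genes higher and lower numbered 1972 and 1980 with no low-count filter, 555 and 405 with limma on log2(TPM + 1), 2481 and 2327 with all 12 libraries in 1 fit, and 1718 lower with DESeq2. Leaving out 1 library gave 499 to 2378 higher and 298 to 3164 lower. Of the 2376 genes called, 808 (without mimic 2) to 2120 (without control 3) were still called. With limma, 138 and 115 genes were higher and lower in control 3, 997 and 1117 in mimic 3, and 2 and 15 in the difference, where DESeq2 gave 809 lower. With 1 library of replicates 1 and 2 left out, control 3 had 1235 to 1699 higher and 1357 to 1585 lower, mimic 3 2006 to 2748 and 2572 to 3496, and the difference 854 to 1095 and 1145 to 1489, with 1792 to 2054 of its 2171 genes still called. The difference could not be fitted without a replicate 3 library. In LNCaP, genes higher and lower were 405 and 481 with no filter, 240 higher with at least 10 counts in every library, 4 and 0 with limma, 0 and 0 with all 12 libraries in 1 fit, and 18 to 258 and 19 to 311 when 1 library was left out. For the mimic in 22Rv1 they were 122 and 135 with no filter, 1 and 2 with DESeq2, 2 higher with limma, and 0 to 2 and 0 to 4 when 1 library was left out. The replicate block gave 0 and 0 and changed no call. Lists with a median under -0.5 numbered 5, and 3 for control 3 and 10 for mimic 3 apart. The median of a list had another sign than in both libraries together for 8 of 33 lists in control 3 and 5 in mimic 3, among them endoplasmic reticulum stress in control 3 (0.444) and, in mimic 3, histones (-0.215), interferon-stimulated genes (-0.444) and neuroendocrine markers (-0.0635). Of lists with a median beyond 0.5 in either direction it turned to -0.0613 for HIF factors and oxygen sensors in control 3 and to -0.0237 for fibroblast markers in mimic 3, and ELOVL6 turned to 0.505 with limma on log2(TPM + 1). For the named genes, other settings kept the call 1540 times for replicate 3 and 1217 times for the difference. For a gene not called, kept means an estimate moved by less than its SE. The call was lost 129 and 111 times and gained 97 and 23 times, and genes not called moved farther 30 and 29 times. The causes of these changes were not tested.

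Each shift rests on 1 library, and mimic 3 also differed in fragment length, mitochondrial share and GC trend. At 0 counts, levels under 3 counts per library were not detectable.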
